A study of Homo sapiens with 5 samples.

Results

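The genes described here are 10 genes of the Fanconi anaemia pathway, FANCA, FANCC, FANCD2, FANCE, FANCF, FANCG, FANCI, FANCL, UBE2T and FAN1. They were listed by name, and every probe of the deposited value table whose annotation named 1 of them under its current symbol was taken. Of the 10 genes, 6 had a probe, 1 each, out of 8127 genes with a named probe in all. FANCA, FANCC, FANCD2 and FANCF were not measured in this table. RNA came from HEK293T, a cell line derived from human embryonic kidney and expressing the SV40 large T antigen, and was read on Illumina expression BeadArrays. The first group is 2 arrays from cells transfected with biotin-labelled miR-182-5p duplex, labelled as pull-down, in which the microRNA and what it held were collected on streptavidin beads 24 h after transfection. The second group is 3 arrays from mock-transfected cells, labelled with no pull-down, although the text of the bead step is attached to them too. Whether mock RNA passed over beads is not settled by the labels, so the effect of the bead isolation and that of the microRNA cannot be told apart. Both groups are the same cell line, and the labels do not tell whether replicate arrays are separate cultures; the p-values therefore cover the array-to-array spread alone, which may be technical. In bulk RNA, fewer cells with a transcript and less of it per cell cannot be told apart.

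The Fanconi anaemia pathway repairs DNA interstrand crosslinks, lesions that tie both strands of the helix together and stop replication forks. A nuclear core complex, which includes FANCA, FANCC, FANCE, FANCF, FANCG and the RING ubiquitin ligase FANCL, works with the ubiquitin-conjugating enzyme UBE2T to attach ubiquitin to the paired proteins FANCI and FANCD2. The marked pair is clamped on DNA and directs nucleases, translesion polymerases and recombination proteins to the crosslink, and the nuclease FAN1 can be recruited through ubiquitin-marked FANCD2. Inherited loss of pathway genes causes bone marrow failure and cancer predisposition, while loss of FAN1 is known for a kidney disease, karyomegalic interstitial nephritis. In its title the study gives DNA repair genes as targets of miR-182-5p, so the comparison asks which transcripts the microRNA held; those that it holds should gain signal on the pull-down arrays.

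The sequence of the bait is shown because the pull-down was made with it. The mature sequence, as RefSeq gives it on GRCh38.p14 at chr7:129770447-129770470, minus strand, runs 5′ to 3′ with its seed, bases 2 to 8, in capitals.
hsa-miR-182-5p: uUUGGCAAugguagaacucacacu
None of the other mature microRNA names in that RefSeq table, which holds 2370 names in all, had the same seed. The letters that would pair with the whole seed in a transcript are UUGCCAA. No transcript sequence was used here, so whether a member carries them was not examined.

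All values are the authors' deposited log2 values, in which 1 unit is a doubling of signal, and all differences are pull-down minus mock. Values are listed in the order of the replicate numbers, 1 and 2 for the pull-down and 1 to 3 for the mock. Across genes, which are no independent replicates, the pull-down arrays correlated with r = 0.977, the mock arrays with r = 0.977 to 0.986, and a pull-down with a mock array with r = 0.873 to 0.895. Each array had a lower limit near 8, where differences are compressed. Of 8 genes listed as typical of HEK293 lines, VIM was at 13.04 and 13.76 in the pull-down and between 13.41 and 13.63 in the mock. KRT18 was at or just above the lower limit on every array, at most at 8.09, while UCHL1 was well above it. UCHL1 averaged 10.01 in the pull-down and 12.26 in the mock, a difference of -2.24 (SE 0.08). NEFL, KRT8, ENO2, INA and NEFM were dim, with mock means from 8.13 for NEFL to 8.87 for NEFM. Their pull-down means ran from 8.28 for NEFL to 9.11 for INA. PTPRC, CD3E, ALB, HBB and DES, listed for other cell types, were not measured in this table.

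FANCI and FAN1 were higher in the miR-182 pull-down, FANCI by 2.05-fold and FAN1 by 1.33-fold. No member was called lower. FANCL had a positive difference, and FANCE and UBE2T negative ones of like size, without passing the test, and FANCG had a difference near 0. A gene was called at a Benjamini-Hochberg adjusted p under 0.05 by limma, a linear model with a spread moderated across genes, fitted to all 8127 genes and all 5 arrays. So 2 of the 6 measured members were called higher, against 20.2% of all genes tested, and 0 were called lower, against 15.0%. In either direction that is 2 of 6, against 35.1%. When all 11184 probes were tested in place of genes, of which 19.2% were called higher and 14.2% lower, the same counts of 2 and 0 members resulted. At an unadjusted p under 0.05 there were 4 of 6 members, against 46.6% of all genes. With counts this small, the members' shares of calls are near the background, and nothing particular to the pathway is read from them.

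The arrays of both groups did not overlap for 5 of the 6 members, 3 of them with the pull-down above the mock and 2 below it, against 65.1% of all genes (35.0% above and 30.1% below). The median of the 6 differences was 0.19, with 3 above 0 and 3 below, and the median over all 8127 genes was 0.02. The arrays can be split in 10 ways, so that for 1 gene taken alone the smallest p of an exact permutation test is 0.1.

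**Figure D1:**
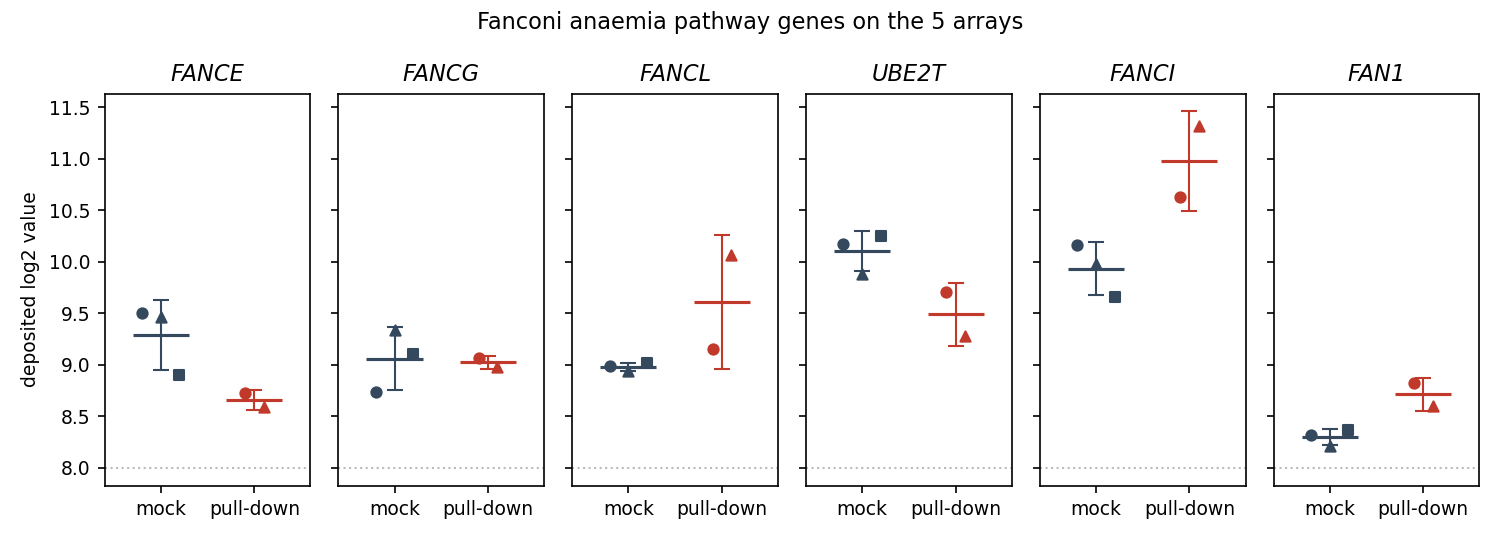
Deposited log2 values (vertical axis) of the 6 measured members on the 3 mock arrays (dark) and the 2 miR-182 pull-down arrays (red). Circles, triangles and squares are replicates 1, 2 and 3, horizontal bars are group means, error bars are SD and the dotted line is the lower limit near 8; both FANCI pull-down arrays, at 10.63 and 11.32, lie above its 3 mock arrays.

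FANCI is the partner of FANCD2 in the clamp that receives ubiquitin. The 2 pull-down arrays gave log2 values of 10.63 and 11.32, and the 3 mock arrays gave 10.16, 9.98 and 9.66. Both pull-down arrays were above all mock arrays, with array 2 well above array 1. The means were 10.97 ± 0.49 (SD, n = 2) and 9.93 ± 0.25 (SD, n = 3), a log2 difference of 1.04 (SE 0.26, 95% interval 0.35 to 1.73; limma adjusted p = 0.0396). It was the 389th largest positive difference of 8127 genes. The call was lost without pull-down array 2 (difference 0.70, limma adjusted p = 0.124), in the absence of mock array 1 (0.0726), 2 (0.105) or 3 (0.0793), and with the replicate number as a block (0.0913), a fit in which mock array 3 has no partner and adds nothing to the difference. The direction was kept in each of these.

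FAN1, a structure-specific nuclease that cuts DNA beside crosslinks, had the other call. Its log2 values were 8.82 and 8.60 after pull-down, and 8.32, 8.22 and 8.36 after mock transfection. The mock arrays were close together and both pull-down arrays lay above them. The means were 8.71 ± 0.16 (SD, n = 2) against 8.30 ± 0.08 (SD, n = 3), a log2 difference of 0.41 (SE 0.10, 95% interval 0.16 to 0.67; limma adjusted p = 0.0321). Its mock values were 0.17 to 0.34 above the lowest value of their array, where differences are compressed, so 1.33-fold is a compressed value. The call was lost without pull-down array 1 (limma adjusted p = 0.113) or mock array 1 (0.0858), 2 (0.0908) or 3 (0.0544), under quantile normalization (0.0587) and under cyclic loess (0.0503), always with a positive difference.

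FANCL, the RING subunit that gives the core complex its ubiquitin ligase activity, was uneven within the pull-down. Values of 9.15 and 10.07 in the pull-down stood against 8.99, 8.94 and 9.02 in the mock. Pull-down array 1 was just above the mock and array 2 stood far above it. The difference was 0.63 (SE 0.28, 95% interval -0.11 to 1.37; limma adjusted p = 0.154). It rested on pull-down array 2, being 0.17 without that array and 1.09 without pull-down array 1, where the remaining array, taken to vary like the other group, gave a call (limma adjusted p = 0.0206). FANCL also passed with genes limited to a mean of at least 9 (limma adjusted p = 0.0195) or to a group mean at least 0.5 above the lowest value (0.0467). Both fits test fewer genes and refit the spread shared across genes, with an SE of 0.23 and 0.24 for FANCL. FANCL reached a mean of 9 over all arrays only through the pull-down, with a mean of 9.61 there and 8.98 in the mock. Its call under that filter is no separate support.

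UBE2T, the ubiquitin-conjugating enzyme that works with FANCL, lay on the other side. It read 9.70 and 9.27 after pull-down and 10.17, 9.88 and 10.25 in the mock. Every pull-down array was below every mock array. The difference was -0.61 (SE 0.18, 95% interval -1.09 to -0.13; limma adjusted p = 0.0598), a mean signal 1.53-fold below the mock that missed the threshold. It passed under median centring (limma adjusted p = 0.0304), both filters on dim genes (0.0148 and 0.0201), a variance trend (0.0397) and the replicate block (0.0376). In the other 11 alternatives UBE2T was not called, as without mock array 1 (limma adjusted p = 0.153) or 3 (0.125). Without pull-down array 2 the difference shrank to -0.40.

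FANCE, which links the core complex to FANCD2, had a difference of the same size as UBE2T. Log2 values were 8.73 and 8.59 on the pull-down side and 9.51, 9.47 and 8.90 on the mock side. The groups did not overlap, and mock array 3 was the low one of its group, near pull-down array 1. The difference was -0.63 (SE 0.22, 95% interval -1.20 to -0.06; limma adjusted p = 0.0843). Without mock array 3 it was -0.83 and was called (limma adjusted p = 0.0126). It was also called with the replicate block (0.0227), a variance trend (0.0456) and both filters on dim genes (0.0141 and 0.0248). The mean of at least 9 is taken over all 5 arrays, and FANCE reached it only through the mock. Its pull-down mean was 8.66 and its mock mean 9.29, so the call under that filter is no separate support. In the other 11 alternatives FANCE was not called.

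FANCG, a scaffold subunit that binds FANCA, was the 1 member whose groups overlapped. The pull-down gave 9.07 and 8.98, the mock 8.74, 9.34 and 9.11. The pull-down arrays fell inside the range of the mock. The difference was -0.04 (SE 0.19, limma adjusted p = 0.901), and its 95% interval, -0.54 to 0.47, still holds differences of the size seen for FAN1. The sign changed without pull-down array 2 or mock array 2, where the difference was 0.10 in the latter.

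**Figure D2:**
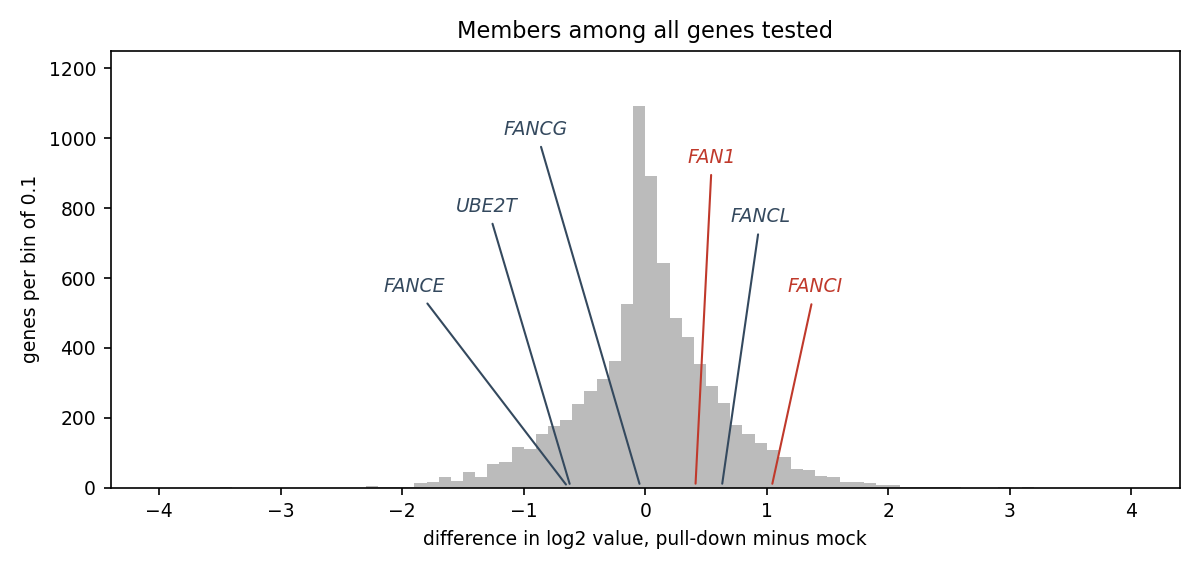
Number of genes (vertical axis, bins of 0.1) by the difference in log2 value, pull-down minus mock, over all 8127 genes (grey), with a line from each member's name to its difference (red, called; dark, not called). The members run from -0.63 for FANCE to 1.04 for FANCI.

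Members differed in how closely the pull-down arrays repeated each other. The gap between pull-down arrays 1 and 2 was 0.92 for FANCL, wider than that of 99.1% of all genes, and 0.69 for FANCI, wider than that of 96.7%. Among genes with a mean of at least 9, which are less compressed, these shares were 98.1% and 93.3%. For UBE2T the gap was 0.43, for FAN1 0.22, for FANCE 0.14 and for FANCG 0.09, and the median gap over all genes was 0.13. FANCI and FANCL were higher in pull-down array 2, and UBE2T, FAN1, FANCE and FANCG in pull-down array 1. In the mock, the widest ranges were those of FANCE, 0.61, and FANCG, 0.60, each wider than in over 91% of genes, while FANCL ranged over only 0.08.

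The members' neighbours in crosslink repair were taken from a list of 37 genes, of which 29 were measured. Of these, 7 were higher, 4 lower and 18 not called, with a median difference of 0.06. The 7 were CENPS, DCLRE1A, BRCA1, RMI2, RMI1, TOP3A and PALB2, and the 4 were CENPX, UHRF1, XRCC2 and USP1. Against 20.2% higher and 15.0% lower among all genes, these counts too are near the background. Leaving out 1 array left 3 to 6 higher (3 without mock array 2, and 4 without either pull-down array) and 1 to 4 lower (1 without pull-down array 2, and 2 when mock array 2 was missing). Of the 11 calls, those of CENPS, DCLRE1A, RMI2 and UHRF1 stood whichever array was left out, and the other 7 were lost in at least 1 case. XRCC2 kept its call only when mock array 1 was the one left out. PALB2 and RMI1 lost theirs with either pull-down array or mock array 2 missing, and RMI1 with mock array 3 missing as well. USP1 and CENPX lost theirs in the absence of pull-down array 2, and USP1 also in that of mock array 1 or 2. For TOP3A this held for pull-down array 1 and mock arrays 1 and 2, and for BRCA1 for the second array of each group. Cyclic loess cost XRCC2 its call as well, and the replicate block those of BRCA1, PALB2, XRCC2, USP1 and TOP3A.

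CENPS and CENPX, histone-fold proteins that pair with each other and help anchor the core complex on DNA, went opposite ways. CENPS had pull-down values of 11.84 and 11.00 and mock values of 9.73, 9.20 and 9.36, a log2 difference of 1.99 (SE 0.31; limma adjusted p = 0.0114), the largest of the list. Its other probe, with mock values near the lower limit, gave 0.47 (SE 0.05). CENPX was at 10.34 and 10.09 against 11.37, 11.97 and 11.58, a log2 difference of -1.42 (SE 0.20; limma adjusted p = 0.00968, and 0.0528 without pull-down array 2). The other measured partners of the core complex, FANCB, FAAP20, FAAP24 and FAAP100, were not called, with differences from -0.56 for FAAP100 to 0.18 for FANCB. FAAP100 was called lower without mock array 3 (difference -0.73, limma adjusted p = 0.0231), with the replicate block (0.0328) and under both filters on dim genes (0.0261 and 0.0346), and FAAP20 without mock array 1 (0.0471).

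Genes acting on the FANCI and FANCD2 pair or on the crosslink itself also divided. USP1, the enzyme that removes ubiquitin from the pair, fell by 0.50 (SE 0.10; limma adjusted p = 0.0196), whereas its activating partner WDR48 had a difference of 0.06 (adjusted p = 0.681). UHRF1, a chromatin protein reported to sense crosslinks, fell by 0.94 (SE 0.09). The crosslink nuclease DCLRE1A, also called SNM1A, read 9.62 and 9.87 after pull-down and 8.58, 8.37 and 8.33 in the mock, which is 2.49-fold higher (1.32 in log2 with an SE of 0.12; limma adjusted p = 0.00455). Its mock arrays 2 and 3 were 0.33 and 0.30 above the lowest value of their array, so this fold is compressed as well. The other 5 measured genes for nucleases and their scaffold, SLX4, ERCC1, MUS81, EME1 and SLX1A, were not called, with differences between -0.36 and 0.32.

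In recombination, BRCA1 was higher by 1.02 (SE 0.18), with 1.35 at its other probe, and PALB2, which joins BRCA1 to BRCA2, by 0.30 (SE 0.06) from a mock level at the lower limit. XRCC2, which acts in homologous recombination, fell by 0.72 (SE 0.18; limma adjusted p = 0.0385). The other 3 measured recombination genes, RFWD3 (0.52, SE 0.28), RAD51C (0.37, SE 0.13, but negative at its other probes) and HELQ (0.04, SE 0.06, but below 0 under cyclic loess), were not called. Both other RAD51C probes were called lower when all probes were tested. RFWD3 was called higher with genes limited to a mean of at least 9 (limma adjusted p = 0.0495). Of the complex that takes apart recombination intermediates 3 of 4 members were higher, too few to set against the 20.2% of all genes, and the calls of RMI1 and TOP3A were among those lost with single arrays missing. The 3 were RMI2 (0.88, SE 0.07), RMI1 (0.52, SE 0.11) and the topoisomerase TOP3A (0.36, SE 0.07, from a mock level at the lower limit), and BLM, its helicase, had a difference of 0.36 (SE 0.20) that was not called. None of 3 translesion synthesis genes was called, nor was TOPBP1, an activator of the kinase ATR, at -0.56 (SE 0.22; limma adjusted p = 0.116), which was called lower under both filters on dim genes (0.0295 and 0.0427).

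**Figure D3:**
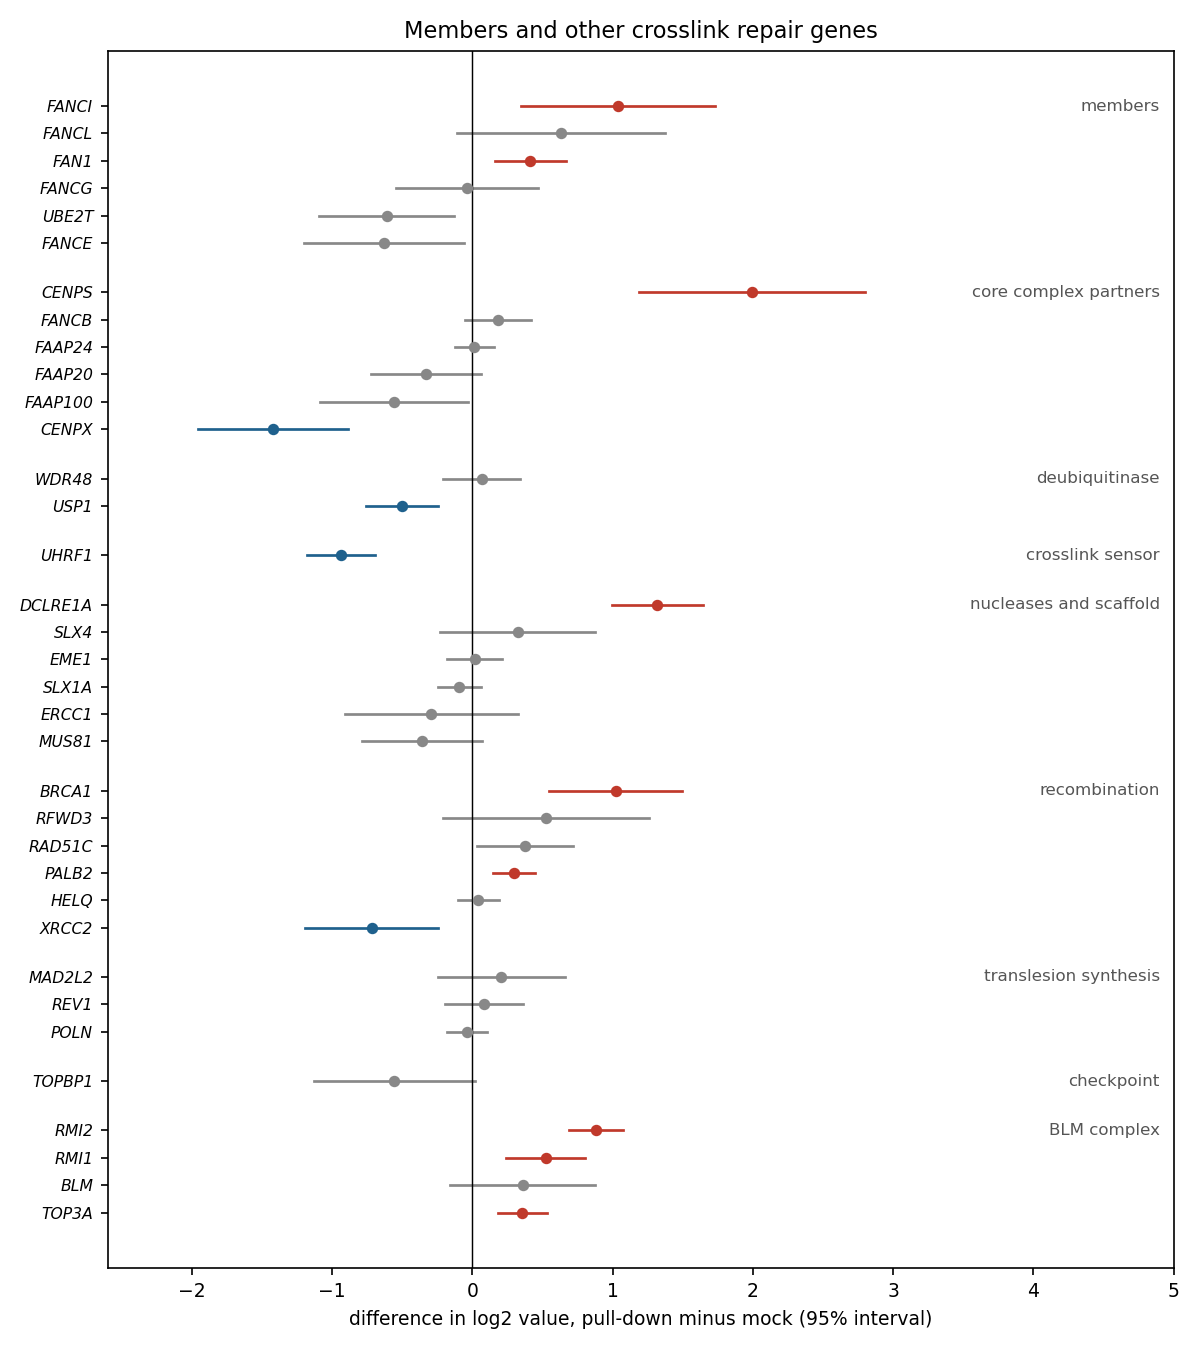
Difference in log2 value, pull-down minus mock (horizontal axis), for the 6 members and the 29 other crosslink repair genes measured, grouped by role. Points are limma estimates, bars are 95% intervals, red is called higher, blue is called lower and grey is not called; CENPS at 1.99 and CENPX at -1.42 mark the ends.

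The genes whose values over the 5 arrays ran closest to those of FANCI, after each gene's own mock mean was subtracted, were MCM6, a subunit of the replicative helicase, at a root mean square distance of 0.05, HCFC1, a transcription cofactor, at 0.06, and DDIAS at 0.07. Their differences were 1.09, 1.01 and 0.98, near that of FANCI because the choice by distance requires it. For FAN1 the closest were THAP10, IFT52 and ST7, each at a distance of 0.02 to 0.03. Their differences were 0.40, 0.38 and 0.42, and IFT52 was not called (limma adjusted p = 0.0501). Within a distance of 0.15 there were 828 genes for FAN1, against 12 genes for FANCI. The distance was not scaled to the size of the difference. A difference of 0.4 to 0.5, as for FAN1, was seen in 355 genes, and 1 of 1 to 1.1, as for FANCI, in 109. The counts within 0.15 therefore also reflect how common differences of each size were. The likenesses rest on 5 arrays in 2 groups and describe the arrays only.

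**Figure D4:**
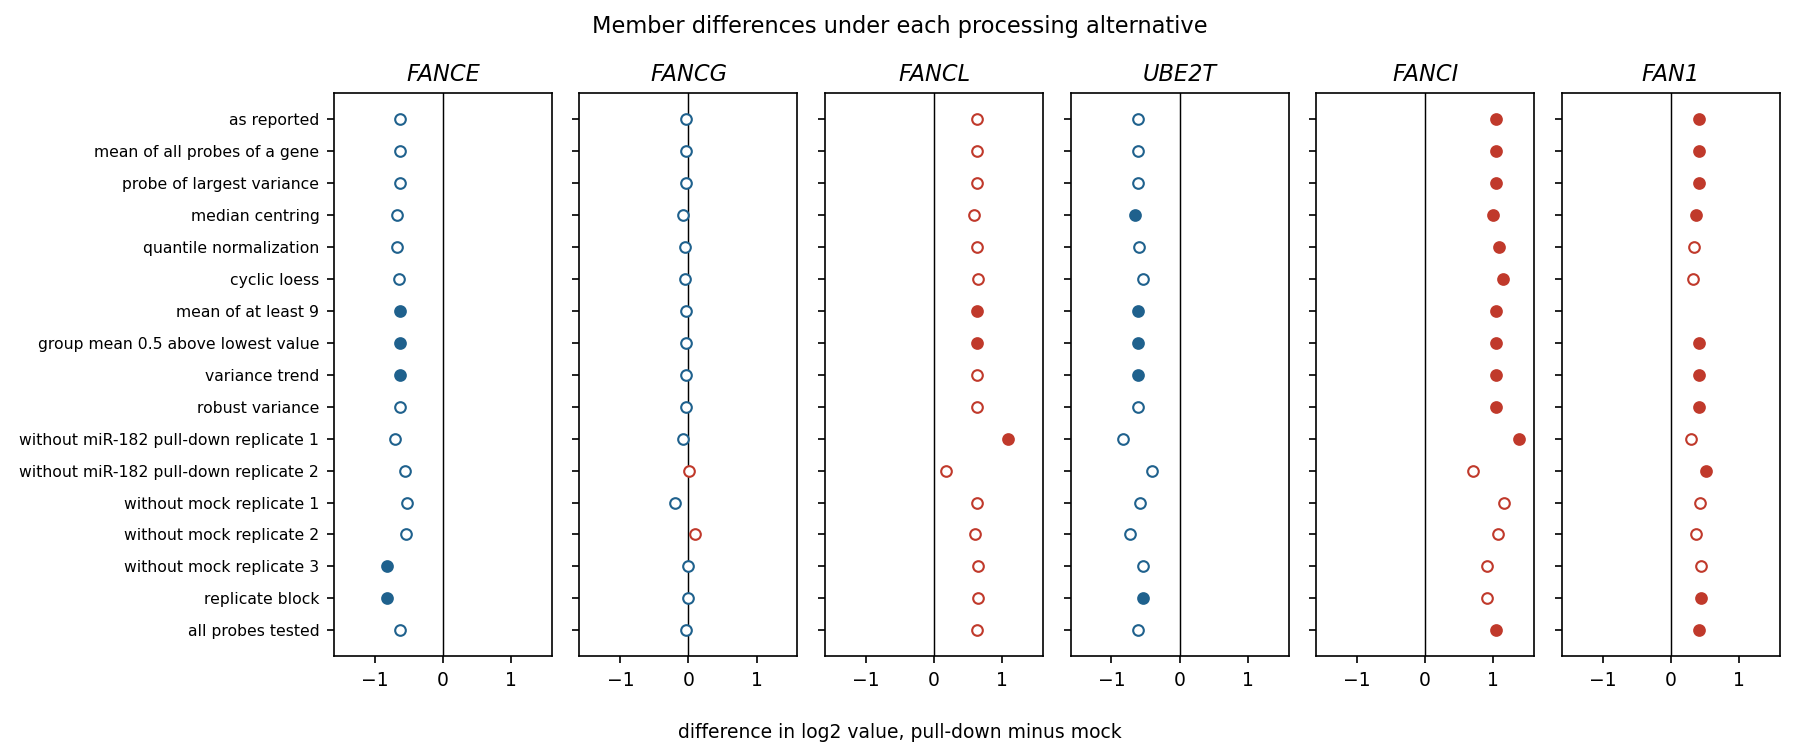
Difference in log2 value, pull-down minus mock (horizontal axis), of each member as reported and under each processing alternative (vertical axis). Filled points had a limma adjusted p under 0.05, open points did not, red is above 0 and blue below; FANCI and FAN1 stay above 0 and UBE2T and FANCE below 0 throughout, while FANCG crosses 0 when pull-down array 2 or mock array 2 is left out.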

How the data were processed

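Samples were grouped by their titles. The log2 values are those of the table the authors deposited, with 11184 probes; base 2 is an inference from their range. Per the submitters' processing notes lumi 2.2.1 was used, with no role given; how background, scaling and probe selection were handled is not given in the sources used here. A second deposited table, of unnormalized signals, was left out since its 10 columns of values carry no sample's label, so no detection filter was applied. The number of arrays limits the precision.

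Probes were named through the platform annotation, with symbols updated by Entrez identifier to RefSeq GRCh38.p14: 1 symbol was found for 10040 probes (10039 of them matched to a current record), several for 1 and none for 1143. The probe of highest mean stood for each of 8127 genes. The 2-sided gene tests used lmFit and eBayes of limma 3.58.1, under R 4.3.3, with 3 residual and 1.61 prior degrees of freedom. Adjusted p-values are Benjamini-Hochberg values over all genes of the fit. The filters on dim genes left 3831 genes (mean over all 5 arrays of at least 9) or 5800 (higher group mean at least 0.5 above the lowest value). Of all 8127 genes, 1289 were called higher and 1132 lower with the replicate block. These counts were 2055 and 1421 with a variance trend, and 1500 and 1403 under median centring. Where probes were tested, the adjustment was over all 11184 probes. Members and lists were chosen with earlier results of these data known. Named were all members, called genes and the 3 largest differences in each direction of the wider list, and the 3 closest profiles of called members; RFWD3, RAD51C, HELQ, SLX4, ERCC1, MUS81, EME1, SLX1A, FANCB, FAAP20, FAAP24, FAAP100, WDR48, BLM and TOPBP1 were named to complete their groups after their values were seen.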

Additional observations from a re-analysis of the deposited data

How the results depend on the processing

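The 6 members were refitted under 16 alternatives (15 for FAN1, which has a mean under 9). All kept their direction except FANCG, whose difference ran from -0.20 to 0.10 when 1 array was left out. Members called higher numbered 2 as reported, 0 to 2 with 1 array left out, 1 under quantile normalization, 1 under cyclic loess, 1 with the replicate block and 3 with a group mean 0.5 above the lowest value. Members called lower numbered 0 as reported, 0 to 1 with 1 array left out, 1 under median centring, and 2 with a mean of at least 9, with a group mean 0.5 above the lowest value, with a variance trend or with the replicate block. Of the 29 genes of the wider list, 7 were higher and 4 lower as reported. With 1 array left out 3 to 6 were higher and 1 to 4 lower, and with the replicate block 4 and 3. With a mean of at least 9, 14 were left (not DCLRE1A, PALB2, RMI1 or TOP3A), 4 higher and 6 lower. Of all 3831 genes left, 954 were higher and 1116 lower. With a group mean 0.5 above the lowest value, 5 of 21 were higher and 6 lower, against 1572 and 1379 of 5800. Differences near 0 changed sign for FAAP24 under median centring (-0.028) and cyclic loess (-0.028), for EME1 under median centring (-0.024), quantile normalization (-0.041) and cyclic loess (-0.039), and for HELQ under cyclic loess (-0.0064). With 1 array left out, EME1 ran from -0.045 to 0.078 and WDR48 from -0.020 to 0.15. RAD51C turned to -0.45 with the mean of its probes and to -0.92 with the probe of largest variance, since its probes disagree. Adjusted p-values (limma, Benjamini-Hochberg) over the alternatives ran from 0.000258 to 0.124 for FANCI and from 0.0102 to 0.113 for FAN1. The cause of these changes was not tested. Both filters test fewer genes, refit the spread shared across genes and use the values that are compared. FAN1 and DCLRE1A, with mock means of 8.30 and 8.43, passed the group mean filter only through the pull-down. FANCL reached a mean of 9 only through the pull-down, and FANCE only through the mock. Their calls under the filter named are no separate support. With a mean of at least 9, the SE of FANCL went from 0.28 to 0.23 and that of RMI2 from 0.07 to 0.20. Left-out arrays leave fewer samples. Whether numbers mark pairs is unknown. Deviations from group means gave r = 0.04 (number 1) and 0.12 (number 2) across genes. Those of the 2 pull-down arrays are opposite, so r cannot decide this. Calls over genes (fits over probes aside), 1640 higher and 1215 lower as reported, ranged from 954 to 2055 higher and from 638 to 1421 lower. Of the 3 scalings, median centring shifted the median of all genes the most, by -0.04. Signals near the lower limit and the 2 pull-down arrays limit what can be seen.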

Other observations

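RAD51C, a recombination gene of the wider list, was named after its values were seen because its probes disagreed. The probe annotated to NM_002876, which stood for the gene, gave a log2 difference of 0.37 (SE 0.13) and was not called when all probes were tested. The probes annotated to NM_058216, another transcript of the gene, were at 9.03 and 9.47 in the pull-down against 10.18, 9.87 and 10.45 in the mock, and at 9.26 and 9.72 against 10.36, 10.21 and 10.33. Their differences were -0.92 (SE 0.23) and -0.81 (SE 0.16), both called lower over all probes (limma, Benjamini-Hochberg adjusted p = 0.0402 and 0.0221). For USP1, the probe annotated to NM_003368 was near the lower limit on all 5 arrays and gave 0.04, while the probe that stood for the gene gave -0.50.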
